A study of Mus musculus with 2 samples.

Results

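Mir132 and Mir212 are neighbouring miRNA genes on mouse chromosome 11, described here in embryonic heart. Their rows were taken from the deposited count tables by gene identifier, ENSMUSG00000065537.1 for Mir132 and ENSMUSG00000065590.1 for Mir212, which gave 2 genes of 1973. The samples were hearts of healthy B6NCrl embryos at 13.5 days, with males and females pooled. MicroRNA-seq of the RNA below 30 nucleotides was made in 2 libraries, labelled as biological replicates from separate biosamples under the same donor record. They form 1 group, with no treatment, genotype or second age, so the only comparisons are between genes and between libraries. Whether the biosamples were separate litters is not given in the sources used here. A p-value between the libraries sets their counts against counting error alone. It speaks only of these libraries and does not measure the spread between samples.

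A miRNA gene is transcribed as a longer primary RNA, from which a hairpin is cut and then trimmed to short mature strands, called the 5p and 3p arms after their side of the hairpin. The mature strand guides a silencing complex to messenger RNAs that pair with its seed, the bases 2 to 8 from its 5′ end. The primary transcript of this pair is known as a target of the transcription factor CREB and is induced by activity in neurons. In cardiac muscle cells both miRNAs are known to promote hypertrophy, the growth of the cell without division, by repressing Foxo3, a transcription factor that restrains growth and favours autophagy. In blood vessels miR-132 is known to promote endothelial growth by repressing Rasa1, an inhibitor of Ras.

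The mature strands are shown because they fix what each gene can contribute to a shared seed. All 4 were in the RefSeq table of GRCm38.p6, the same assembly as mm10, and lie on the plus strand. The seed is in capitals.
mmu-miR-132-3p: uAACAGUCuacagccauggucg
mmu-miR-212-3p: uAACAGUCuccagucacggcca
mmu-miR-132-5p: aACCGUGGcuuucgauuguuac
mmu-miR-212-5p: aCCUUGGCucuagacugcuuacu

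The 3p strands shared the seed AACAGUC, and no other entry among 1738 mature mouse miRNAs in that table had it. They were identical at 17 of 22 positions, with the first 9 bases the same in both. The 5 differences, counted from the 5′ end with the base of miR-132-3p first, were A10C, C14U, U17C, U20C and G22A. The 5p strands were identical at 9 of the 22 positions compared from the 5′ end and had different seeds, each found in no other mature entry. The longest run of any of the 4 strands in another of the 1005 hairpins of the table was 11 bases, for miR-212-5p. The 3p strands of the pair shared no run longer than 9 bases with each other. A full-length read of these strands could therefore be placed at 1 gene among the annotated hairpins, unlike reads of miRNAs with identical copies, which can fall into the multi-mapping class. The tables give 1 count per gene, so the arms were not told apart.

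The hairpins are shown with their mature arms in capitals.
Mir132: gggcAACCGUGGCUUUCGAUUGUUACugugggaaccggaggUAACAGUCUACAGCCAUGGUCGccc
Mir212: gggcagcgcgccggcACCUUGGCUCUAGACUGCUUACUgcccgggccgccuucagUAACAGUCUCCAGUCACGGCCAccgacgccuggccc

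The hairpin of Mir132 was 66 bases long and that of Mir212 was 91. Between the arms lay 15 bases in Mir132 and 17 in Mir212. The Mir212 hairpin was 69.2% G and C, above 96.9% of the 1005 hairpins. Mir132 had 57.6%, and the median of all hairpins was 51.7%. The pair thus differed in hairpin composition as well as in level, and a part of base composition in the counts was not tested.

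On mm10, Mir212 lies at chr11:75173388-75173478 and Mir132 at chr11:75173682-75173747, both on the plus strand. Their starts are 294 bases apart, with 203 bases between the hairpins. GENCODE M21 places both in the first intron of 1700016P03Rik, a noncoding transcript of 3 exons at chr11:75172560-75177633 on the same strand. Mir212 starts 828 bases after the start of that transcript, and Mir132 ends 231 bases before its second exon.

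**Figure D1:**
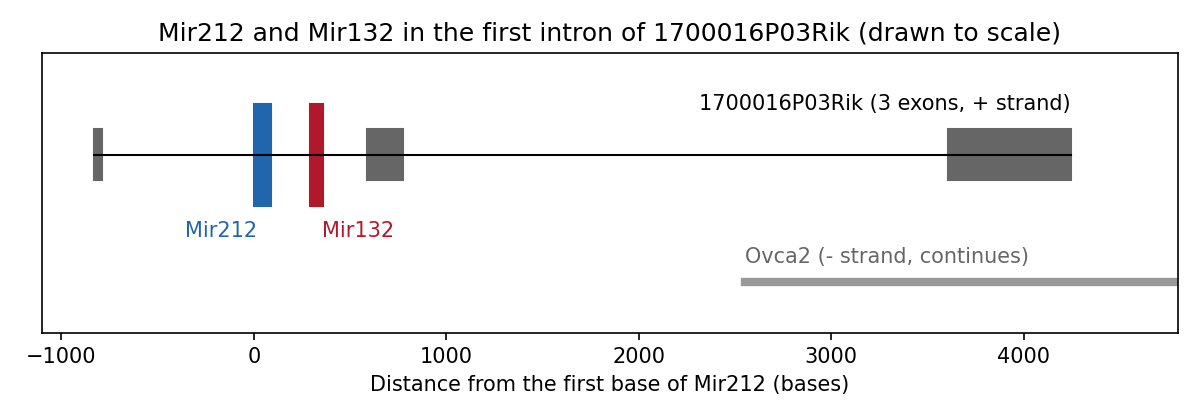
Map of the pair and its host transcript 1700016P03Rik, with distance in bases from the first base of Mir212 on the horizontal axis, exons as grey boxes and the hairpins as coloured boxes. Both hairpins lie between the first and the second exon, and the part of Ovca2 in view is on the opposite strand.

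Both genes were detected in both libraries, and Mir132 was the higher in each. Replicate 1 held 886 sense reads at Mir132, or 159 counts per 1000000 sense reads (CPM; exact Clopper-Pearson 95% interval 149 to 170). Replicate 2 held 953, or 158 CPM (148 to 168). The level of Mir132 was 158 ± 0.891 CPM (SD, n = 2), and the intervals of the libraries overlapped over most of their length.

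Mir212 held 62 sense reads in replicate 1, or 11.1 CPM (8.53 to 14.3). It held 100 in replicate 2, or 16.6 CPM (13.5 to 20.1). Its level was 13.8 ± 3.84 CPM (SD, n = 2), with replicate 2 the higher and intervals that overlapped at their ends. Neither gene had a read on the opposite strand, where 0 counts allow a level of at most 0.539 CPM (replicate 1) or 0.497 CPM (replicate 2). Intervals and these limits cover counting error only, since PCR copies are not independent molecules.

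**Figure D2:**
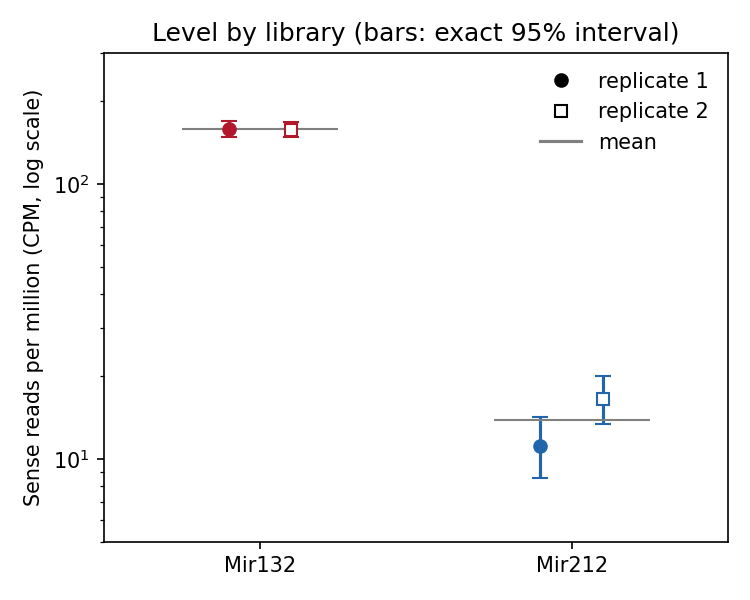
Sense CPM on a log axis for Mir132 and Mir212, with filled circles for replicate 1, open squares for replicate 2, bars for the exact 95% interval of counting and a grey line for the mean. Mir132 sits near 158 CPM in both libraries, and Mir212 at 11.1 and 16.6 CPM.

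Together the genes gave 170 CPM in replicate 1 and 174 CPM in replicate 2, a mean of 172 ± 2.95 CPM or 0.0172% ± 0.000295 of all sense reads. The libraries held 5569959 and 6039005 sense reads in miRNA genes, of which the pair took 948 and 1053. How these reads divided between the 5p and 3p arms was not analysed here.

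Within the pair, Mir132 exceeded Mir212 by 14.3-fold in replicate 1 (exact 95% interval 11.04 to 18.8) and by 9.53-fold in replicate 2 (7.75 to 11.8). The mean log2 ratio was 3.54 ± 0.413 (SD, n = 2), or 11.7-fold in reads per gene. The difference between the genes was many times its spread between the libraries and had the same direction in both. An exact permutation test that flips the sign of 2 values has 0.5 as its smallest p, so none is given. A short read covers a whole mature strand, and these are 22 or 23 bases long in both genes, so reads per gene were not divided by length. Divided by hairpin length, the ratio was 16.1-fold.

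Mir212 made up 6.54% of the pair's reads in replicate 1 (5.05 to 8.31) and 9.50% in replicate 2 (7.79 to 11.4). This share is a comparison inside each library and does not depend on how the libraries are scaled. Fisher's exact test of the 4 counts, two-sided, gave p = 0.0172, and the log2 ratio of Mir132 over Mir212 was 0.58 higher in replicate 1. That test compares the reads of these libraries, not conditions, and takes reads as independent.

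Between the libraries, Mir132 did not pass the test and Mir212 did. The log2 ratio of replicate 1 over replicate 2 was 0.011 for Mir132 (two-sided exact binomial test, Benjamini-Hochberg adjusted p = 0.898) and -0.57 for Mir212 (adjusted p = 0.0258). An adjusted p under 0.05 was reached by 177 of the 288 genes tested, those with a mean of at least 10 CPM, which is 61.5%, so that passing it was common between these libraries. On total counts it was passed with the higher level in replicate 2, as for Mir212, by 53 genes or 18.4%. That share depends on scaling, and it is not given here for TMM or DESeq2 scaling. When the libraries also had to differ by 1.5 times, after 1 CPM was added to each level, 17 genes or 5.90% were called, and neither Mir132 nor Mir212 was among them. Scaling by edgeR's TMM method or by DESeq2 size factors brought Mir212 past that ratio as well. Its log2 ratios were then -0.63 and -0.64 after 1 CPM was added, and -0.68 and -0.69 without it. The same scalings gave Mir132 log2 ratios of -0.092 and -0.11, so that its direction between the libraries depends on scaling.

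Genes of a level like that of Mir212 had a median absolute log2 ratio of 0.28 between the libraries, against 0.17 over all genes tested. Of the 44 other genes within 2-fold of its mean CPM, 8 had an absolute log2 ratio at least as large, and 2 of these were also higher in replicate 2. The median ratio of those 44 genes was 0.20, on the other side of 0 from Mir212. Around Mir132, 68 of 71 genes within 2-fold of its level differed at least as much between the libraries as it did. The median over all 288 genes was 0.10, and 34.4% of them had a ratio below 0.

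**Figure D3:**
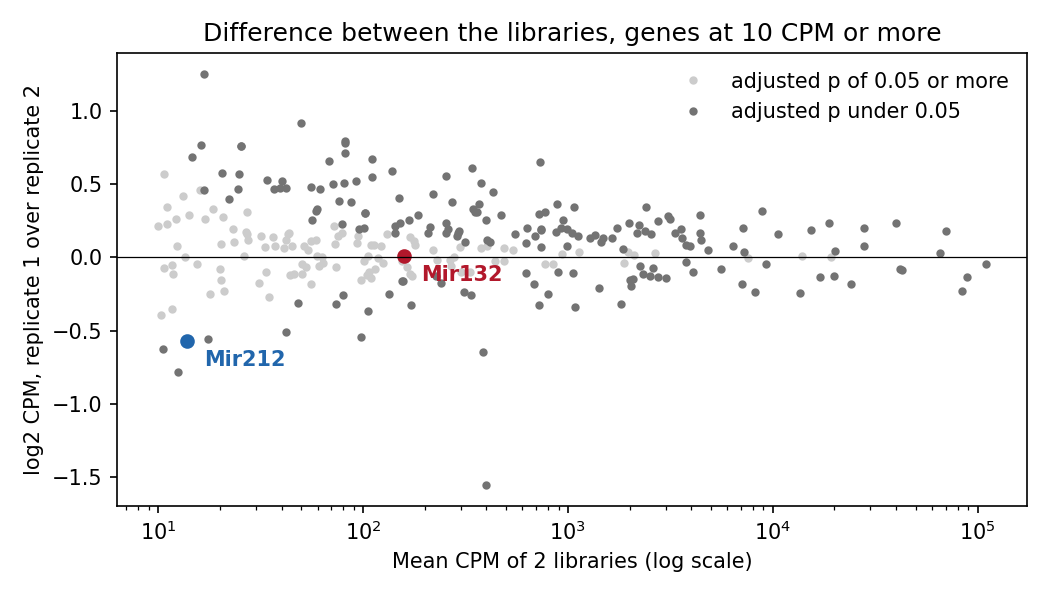
The log2 CPM ratio of replicate 1 over replicate 2 against mean CPM on a log axis, for the 288 genes tested, with dark points for an adjusted p under 0.05. Mir132 lies on the line of no difference at 0.011, and Mir212 lies among the lower points at -0.57.

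Summed markers of the cell types an embryonic heart can hold differed between the libraries by at most 0.39 on the log2 scale, but single markers differed by more. The neuron list, relevant because the pair is known from neurons, had a summed level of 393 CPM (replicate 1) and 352 CPM (replicate 2), opposite in direction to Mir212. The log2 ratio of that sum was 0.16, against a median of 0.10 over all 288 genes. All 3 rows of Mir124a, the main miRNA of neurons, held 0 reads in both libraries. Mature miR-124 comes from several identical copies, whose reads may lie in the multi-mapping class. The neuron list had 13 rows, 4 of them without a read, and 6 at 10 CPM or more. None of its members reached the level of Mir132. Their median log2 ratio of replicate 1 over replicate 2 was 0.21. Mir138-2, the most abundant, was higher in replicate 2 as Mir212 was (log2 -0.36, exact binomial test, adjusted p = 3.12e-05). Mir137 (0.66) and Mir129-2 (0.76) were higher in replicate 1 and were called with the ratio of 1.5, but Mir137 was not called with TMM or DESeq2 scaling.

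The cardiac muscle markers summed to 50724 CPM (replicate 1) and 53395 CPM (replicate 2), with 3 of 6 rows at 10 CPM or more and 1 row, Mir133a-2, without a read. The rows below that level, Mir1a-1, Mir133a-1 and Mir133a-2, are numbered copies like those of Mir124a. Their reads may lie in the multi-mapping class, so these rows do not show that the miRNAs were scarce. Smooth muscle markers, 2 of 2 rows at that level, summed to 85136 and 93532 CPM. Both sums were higher in replicate 2, as Mir212 was. At an adjusted p under 0.05, 2 cardiac markers were higher in replicate 2. On total counts the cardiac Mir208a was higher in replicate 1 (log2 0.034, exact binomial test, adjusted p = 0.00132). With DESeq2 size factors, equal for the libraries, its 40934 and 43346 reads put replicate 2 higher, so its direction depends on scaling. Endothelial markers (3 of 3 rows) summed to 74954 and 66080 CPM, erythroid markers (3 of 3) to 1261 and 959 CPM, and leukocyte markers (3 of 4) to 662 and 516 CPM, each higher in replicate 1. Each of these sums is carried by its most abundant genes. On total counts, the median log2 ratios of the markers at 10 CPM or more were 0.47, 0.55 and 0.51, opposite in direction to Mir212. Over all 288 genes the median was 0.10. The endothelial median was that of Mir221, whereas Mir126a, which carries the endothelial sum, had a log2 ratio of 0.18. The erythroid Mir486 (0.71) and the leukocyte Mir146 (0.92) were called with the ratio of 1.5, higher in replicate 1. The leukocyte Mir155 was higher in replicate 2 (log2 -0.16, exact binomial test, adjusted p = 0.0355). At an adjusted p under 0.05, 2 leukocyte markers were higher in replicate 1. The part of these cell types in the Mir212 difference was not tested. In whole tissue, fewer cells of a type and less RNA per cell cannot be told apart.

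By mean CPM, Mir132 ranked 155 and Mir212 ranked 273 among the 692 genes with a read. Reads of miRNAs with identical copies may lie in the multi-mapping class, so the rows of such genes may rank too low. Of the 288 genes at 10 CPM or more, 133 lay below Mir132 and 15 below Mir212. The median of those genes was 197 CPM, so Mir132 lay at 0.806 of it and Mir212 at 0.0704.

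**Figure D4:**
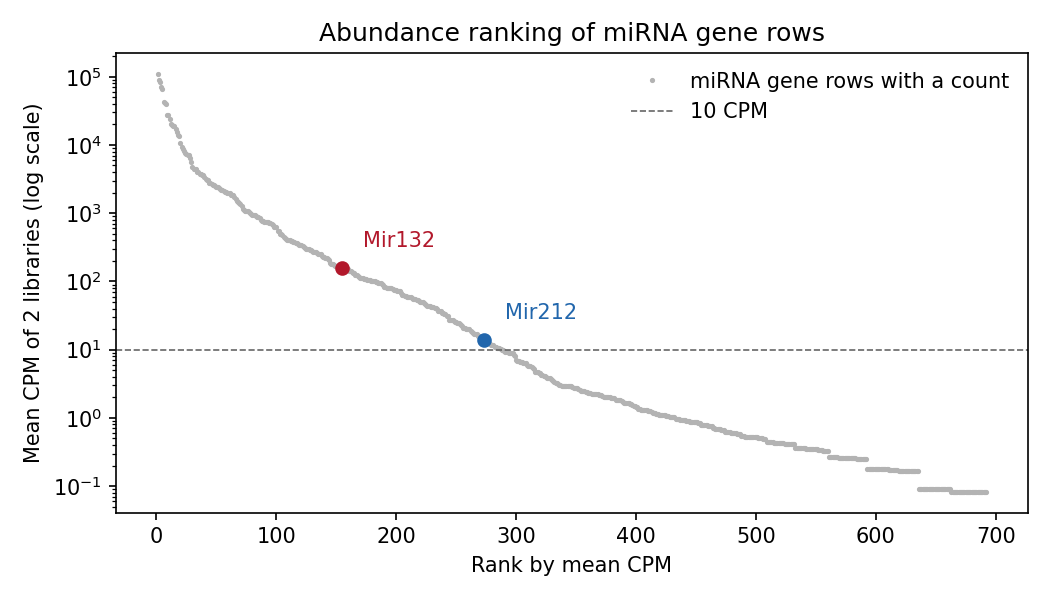
Mean CPM on a log axis against rank for the 692 miRNA genes with a read, with the pair coloured and 10 CPM as a dashed line. Mir132 stands at rank 155 and Mir212 at rank 273, just above the dashed line.

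Directly above Mir132 in the ranking was Mir340 at 161 ± 0.786 CPM (SD, n = 2). It lay above Mir132 in both libraries, with a log2 ratio of Mir132 over Mir340 of -0.024 ± 0.0152. Directly below was Mir362 at 156 ± 12.1 CPM, whose order with Mir132 differed between the libraries. So did that of the next gene, Mir155, known from inflammation and cardiac hypertrophy, at 155 ± 11.99 CPM. The neighbours of Mir212, Mir190b at 14.2 ± 2.03 CPM and Mir8112 at 13.4 ± 0.0370 CPM, changed order with it between the libraries, so that its exact rank is not fixed by these data. Replicate 1 placed Mir212 at rank 283 and replicate 2 at 263, whereas Mir132 was at 157 and 156. With both strands counted, Mir132 moved to rank 164 and Mir212 to 284.

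The genes most like each member were sought among 287 others at 10 CPM or more by the distance of log2(CPM + 1) over the 2 libraries. Nearest to Mir132 were Mir340 (distance 0.0365), Mir187 (0.0558) and Mir329 (0.0913). Nearest to Mir212 were Mir758 (0.266), Mir582 (0.337) and Mir8112 (0.382). Mir212 had no neighbour as close as those of Mir132. It also held fewer reads, and a part of that in the distances was not tested. Mir758 was, like Mir212, higher in replicate 2, with 9.16 and 15.7 CPM. The distance uses the level in each library, so it favours genes that differ between them in the same direction.

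The pair was also set beside other miRNAs described in cardiac hypertrophy. Over all 288 genes at 10 CPM or more, 154 lay above Mir132 and 272 above Mir212. The list of genes described as raised in or promoting hypertrophy holds 17, the pair included. Of these, 10 lay above Mir132 and 15, with Mir132 among them, above Mir212, and 16 reached 10 CPM. The most abundant was Mir208b in the cardiac myosin gene Myh7. Below Mir132 came Mir155, Mir199a-2 at 44.9 ± 1.71 CPM, Mir221 at 41.9 ± 9.58 CPM and Mir222 at 24.7 ± 6.77 CPM. Of the 17, only Mir199a-1, at 2.98 ± 1.63 CPM, lay below Mir212. Both Mir199a genes encode the same mature miRNA, whose reads may fall into the multi-mapping class.

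Between the libraries, 13 of those 16 genes had an adjusted p under 0.05 (exact binomial test on total counts), 8 of them higher in replicate 1 and 5 in replicate 2. This split depends on scaling, as Mir208a and Mir23a, among the 8, lay higher in replicate 2 with DESeq2 size factors. Over all 288 genes, 61.5% passed and 18.4% passed with the higher level in replicate 2, also on total counts. The 5 included Mir212, and Mir132 was among the 3 that did not pass. The median log2 ratio of the 16 was 0.042, against 0.10 over all 288 genes. With the ratio of 1.5 as well, 0 genes of the list were called on total counts, against 5.90% of all genes, and Mir212 was called with TMM or DESeq2 scaling as given above.

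Of 23 listed genes described as lowered in hypertrophy or restraining it, 21 had a row and 12 reached 10 CPM. All 12 were above Mir212, and 7 were above Mir132. Of all 288 genes at that level, 272 lay above Mir212 and 154 above Mir132. The rest of the 21 rows lay below 10 CPM and so below Mir212. Several of those are numbered copies, whose reads may lie in the multi-mapping class. Mir29a, a repressor of collagen genes, held 226 ± 13.7 CPM and was the nearest above Mir132. Mir30b held 125 ± 2.21 CPM and was the nearest below. At an adjusted p under 0.05 (exact binomial test on total counts), 6 of the 12 were higher in replicate 2 and 2 in replicate 1. Their median log2 ratio was -0.070. The same test was passed by 61.5% of all 288 genes, and with the higher level in replicate 2 by 18.4%. The median of all 288 was 0.10.

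The surroundings of the pair held few other miRNA genes with reads. Within 1000000 bases on chromosome 11, 3 further miRNA genes had a row, and 2 of them, Mir6926 and Mir3971, held 0 reads in both libraries. The other was Mir22, a miRNA abundant in heart muscle and known to promote hypertrophy, whose start lies 290328 bases beyond that of Mir212 on the same strand. Mir22 held 9815 CPM in replicate 1 and 7889 CPM in replicate 2, with a log2 ratio of 0.32. Its mean of 8852 ± 1362 CPM was well above both members of the pair, and it was higher in replicate 1 where Mir212 was higher in replicate 2.

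Unequal read numbers from neighbouring hairpins were usual in these hearts. Among genes at 10 CPM or more, each was paired with the next such gene on the same strand. With starts at most 1000 bases apart this gave 60 pairs, formed from 100 genes, so that some genes are in 2 pairs. A gene below 10 CPM can lie between the genes of a pair. The imbalance, the absolute log2 ratio of the mean CPM of the genes, was 3.52 for Mir132 and Mir212. It was larger in 23 of the other 59 pairs (39.0%), and their median was 2.78, with a range from 0.16 to 9.32. The most unequal was Mir99a over Mirlet7c-1, and the mature miRNA of the latter also has a copy at Mirlet7c-2. For such genes the row may hold only part of the reads, whereas no strand of Mir132 or Mir212 has a copy. The higher gene was the downstream one in 27 of the 60 pairs, as it was for Mir132.

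The ratio within the pair shifted more between the libraries than in most other pairs. The shift was 0.58 on the log2 scale for Mir132 over Mir212, against a median of 0.18 in the other 59 pairs. It was at least as large in 3 of them. Those 3 pairs, looked up after their values were seen, were Mir323 with Mir758, Mir329 with Mir758, and Mir293 with Mir294. In each of them the lower gene, like Mir212, had a mean of at most 25.4 CPM. Other pairs with a lower gene at such a level shifted less, by 0.048 to 0.53. A part of the level of the lower gene in these shifts was not tested.

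**Figure D5:**
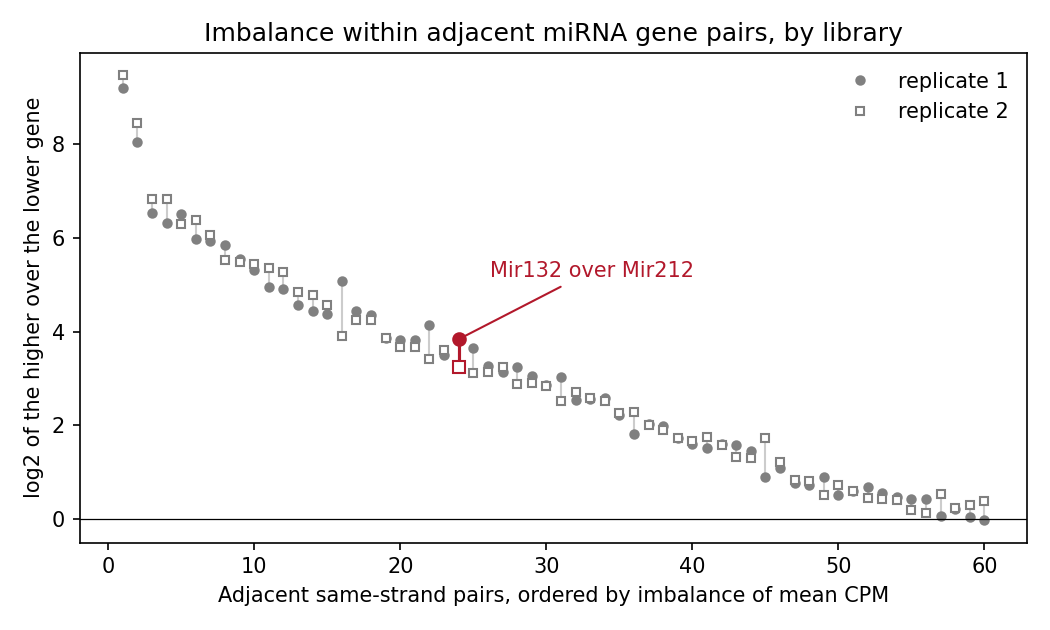
The log2 ratio of the higher over the lower gene in 60 adjacent same-strand miRNA gene pairs, ordered by imbalance of the mean CPM, with filled circles for replicate 1 and open squares for replicate 2. Mir132 over Mir212, in red, stands at 3.84 and 3.25, and its shift of 0.58 between the libraries is matched or exceeded in 3 other pairs.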

How the data were processed

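MicroRNA-seq counts came from 2 libraries of embryonic mouse heart. The deposited values are raw read counts for each miRNA gene on both strands, on the sense strand and on the opposite strand; the authors counted them on mm10 with annotation version M4, per the deposited notes. The aligner, the counting tool and the trimming of adapters were not given in the sources used here. The 1973 gene rows come with 4 read classes, which stayed out of library sizes and tests: unmapped reads were 21.2% and 17.2%, multi-mapping reads 26.9% and 28.0%, and reads outside miRNA genes 3.60% and 2.92% in replicates 1 and 2. Whether the multi-mapping class is also counted at genes is not stated.

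Sense counts were divided by their total and multiplied by 1000000 (CPM). Identifiers were matched to GENCODE M21 without their version (1894 of 1973; Mir132 carries another version there), and sequences were taken from RefSeq. Genes with a mean of at least 10 CPM were tested between the libraries by an exact binomial test of the 2 counts (two-sided, conditional on their sum, expected share from the total sense counts) with Benjamini-Hochberg adjustment over all 288. The step was tested on counts simulated for replicate 1 against replicate 2 over 288 genes without extra spread between libraries, and found 194 of the 200 genes given a 2-fold change and 0 others. Shares carry exact Clopper-Pearson 95% intervals, and 0 counts allow up to 3. With 1 group there is no second condition to test. Members and lists were chosen with earlier results of these data known. Named genes were the pair, genes sharing a seed with it, miRNA genes within 1000000 bases that hold a read, the leading genes of the lists, the 3 genes nearest to each member, and neighbours in rank; any other gene was chosen after its values were seen. Alternatives were edgeR 4.0.16 TMM factors, DESeq2 1.42.0 size factors, other totals, both strands, other CPM minimums and ratios, a pseudocount, other definitions of adjacent pairs, and each library left out. Computation used R 4.3.3, Python 3.11.15, numpy 2.4.6, pandas 2.3.3 and scipy 1.17.1, with matplotlib 3.10.9 for plots.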

Additional observations from a re-analysis of the deposited data

How the results depend on the processing

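Scaling by total counts without the most abundant gene, by all reads, or with both strands counted changed levels in proportion: Mir132 became 178, 75.3 and 150 CPM and the pair together 194, 81.9 and 164 CPM. Mir212 became 6.63 CPM with all reads as the total. Without each library in turn Mir132 ran from 158 to 159 CPM, Mir212 from 11.1 to 16.6 CPM, the pair from 170 to 174 CPM and the log2 ratio of Mir132 over Mir212 from 3.25 to 3.84. That ratio was 4.01 per base of hairpin, an alternative chosen after seeing the data. The log2 ratio of replicate 1 over replicate 2 of Mir132 changed sign to -0.092 with TMM scaling, -0.11 with DESeq2 size factors and -0.088 with all reads, at adjusted p from 0.183 to 0.964 over 6 settings in the exact binomial test. That of Mir212 kept its direction and an adjusted p under 0.05 in 6 of 6 settings (0.00739 to 0.0258). Genes called between the libraries were 39 at a minimum of 1 CPM, 10 at 50 CPM, 45 with no minimum, 2 at a ratio of 2 and 177 with no minimum ratio, against 17; adding thinly read genes and dropping the ratio widen what is counted. The share of adjacent pairs more unequal than Mir132 and Mir212 was 39.0% with starts up to 10000 bases apart and 40.6% at 1 CPM. Both scalings by size factors left the levels of 65 of 65 other genes, which hold the list members with a read and every other named gene given a level, within their SD. Of the pair, Mir212 rests on fewer reads, 62 and 100 against 886 and 953.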
